A study of Arabidopsis thaliana with 4 samples.

Results

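The mitochondrion-encoded genes of Arabidopsis thaliana were followed through a short heat stress in wild-type and larp1 plantlets. They were taken as every gene whose locus identifier begins with ATMG, which gave 143 of the 25819 genes in the expression table. By their descriptions, 38 members belong to named protein genes, 85 are open reading frames (ORFs) of mostly unknown function and 20 are tRNAs. Ribosomal RNA genes of the mitochondrion were not analysed here. The plantlets were 21 days old, of the Columbia-0 accession, grown whole on agar medium with sucrose under continuous light at 20 °C, and either wild type (WT) or labelled as larp1 mutants with no allele given. LARP1 belongs to the La-related proteins, which bind RNA. Pools of 6 to 8 plantlets were moved into liquid medium for 15 min, at 20 °C as control or at 38 °C as heat stress. Each of the 4 combinations of genotype and temperature is 1 library made from 1 pool. Nothing measures the variation between pools, so every comparison is between single libraries and carries no p-value. Unless said otherwise, 4 values in a row are those of WT at 20 °C, WT at 38 °C, then larp1 at 20 °C and at 38 °C.

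The plant mitochondrial genome encodes a small part of the respiratory chain, of the machinery that attaches haem to cytochrome c and of the mitochondrial ribosome, while all other subunits are encoded in the nucleus and imported. Its genes are transcribed by nuclear-encoded RNA polymerases of the bacteriophage type. The transcripts are then trimmed, spliced, edited from C to U and degraded by nuclear-encoded proteins, and a poly(A) tail on a plant mitochondrial RNA marks it for decay rather than for translation. In the Columbia accession a large insertion of mitochondrial DNA lies near the centromere of chromosome 2, so that many of these genes have a close nuclear copy.

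Levels are in RPM, reads of a gene scaled to its library, summed over the exon entries of the gene. The scaling was to between 42608537 and 74419712 reads per library, the most for larp1 at 20 °C. The column of that library carries a suffix (bis) that no label explains, and every value of larp1 at 20 °C rests on it. Ranges in brackets are 95% intervals for counting error alone. LARP1A (AT5G21160) had 37.1, 33.1, 9.21 and 9.29 RPM, so both libraries labelled larp1 were low. Of the marker lists, the 3 leaf genes summed to 14220, 10176, 11644 and 6516 RPM and the 4 root genes to 45.1, 13.8, 42.0 and 17.97 RPM. Flower and seed markers stayed at or below 0.04 RPM. The root genes SCR, SHR and COBL9 fell with heat in both genotypes (SHR not in larp1 with the trimmed-mean scaling described below), WOX5 rose, and no leaf gene was called. The part of these shifts in the results below was not tested.

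Transcripts of the mitochondrion-encoded genes were far higher after 15 min at 38 °C. Summed over all 143 members, their level was 40.4, 504, 52.2 and 591 RPM, with both heated libraries far above both controls. The ratio was 12.5 [11.9, 13.1] in WT and 11.3 [10.9, 11.7] in larp1. Without ORF107A, the ORF with the highest RPM, the sum went from 35.2 to 471 RPM in WT and from 46.3 to 554 RPM in larp1. Even so the class stayed small, at 0.0048% of the summed gene values in WT at 20 °C and 0.0573% in WT at 38 °C. In RNA from whole plantlets, a change in the number of cells or mitochondria and a change in RNA per cell cannot be told apart.

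The change ran through nearly the whole class. A gene was called higher or lower when its log2 fold change, on RPM plus the worth of 1 read, was at least 2-fold and its counting interval excluded no change. With no minimum of reads, 119 of the 141 members with a read in WT were called higher at 38 °C and 0 lower, beside a background of 4.65% of all genes called higher. In larp1, 131 of 143 members were called higher and 0 lower, beside a background of 4.71%. The log2 fold change over these members had a median of 3.31 in WT and 3.37 in larp1, and over all genes with a read it was -0.51 and -0.41. The median of all genes thus lay below 0 on the RPM scale. Trimmed-mean scaling over nuclear genes brought that of the genes compared at 50 reads from -0.51 to 0.00 in WT, and raised the median of the members compared there from 3.65 to 4.16. In WT, 139 of the 141 members lay above 0, and in larp1 142 of 143. The named protein members were called higher in 38 of 38 cases in each genotype, the ORFs in 74 of 84 and 82 of 85, and the tRNAs in 7 of 19 and 11 of 20.

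Most members are so scarce at 20 °C that a minimum of 50 reads in either library admits them through the heated library only, and such members had to differ. Under that minimum 67 members were compared in WT and 76 in larp1, all called higher. The background was 4.26% higher and 25.0% lower in WT and 4.19% higher and 19.8% lower in larp1. Of these members, 56 and 53 reached the minimum at 38 °C only. At least 50 reads at both temperatures were held by 11 members in WT and 23 in larp1. All 11 and all 23 were called higher, beside a background of 3.33% and 3.58% under the same rule. The log2 fold change of these members had a median of 3.29 and 3.19 and a lowest value of 1.87 and 1.496. At the other end, the 67 members under 50 reads in every library together went from 1.98 to 22.5 RPM in WT, 11.4-fold [9.0, 13.9], and from 3.15 to 28.2 RPM in larp1, 8.95-fold [7.73, 10.3].

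**Figure D1:**
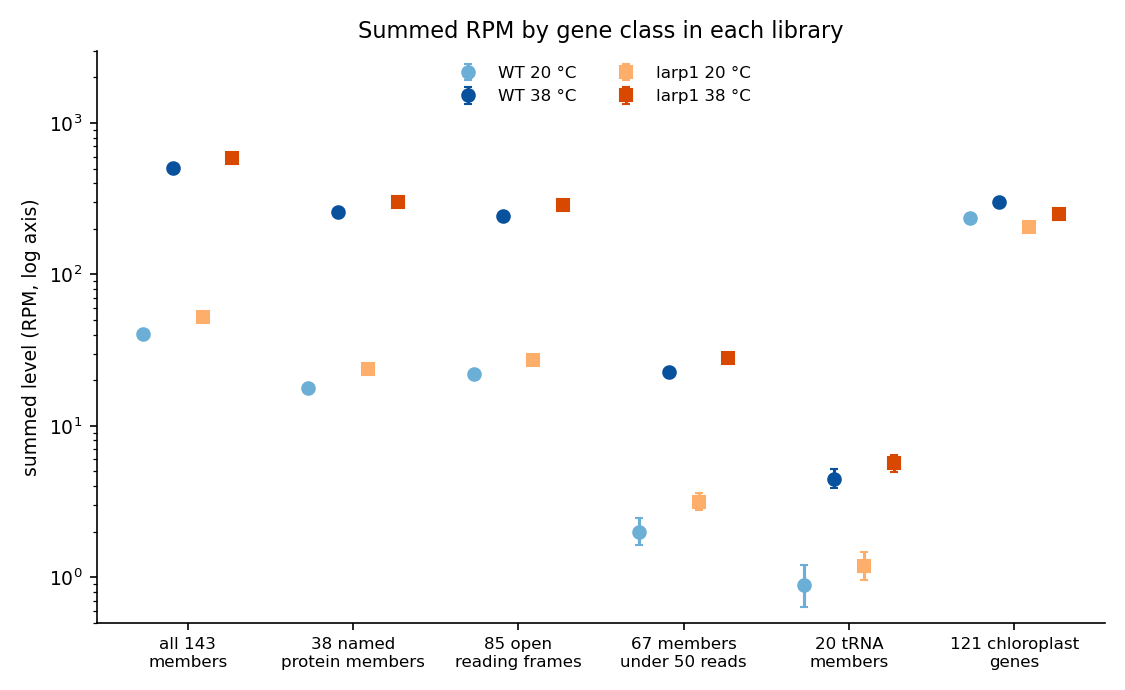
Summed level in RPM (log axis) of 5 classes of mitochondrion-encoded genes and of the chloroplast-encoded genes in each of the 4 libraries; bars are 95% Poisson intervals for counting error. All mitochondrial classes sit higher in the heated libraries, from 40.4 to 504 RPM in WT for all 143 members, while the chloroplast genes went from 236 to 300 RPM.

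Nuclear copies share reads with many of these genes, so the copies were examined next. In the RefSeq annotation of TAIR10.1, a later release than the TAIR10 build of the deposited values, 31 named genes could be matched to members. Their coding sequences were cut into overlapping windows of 100 bases, the length of the reads. ORFs and tRNAs were not searched in this way. For 15 genes every window also occurred letter for letter on a nuclear chromosome, for 11 some did, from 4.47% of windows upward, and for 5 none did; all nuclear matches lay on chromosome 2. How reads that match several places were counted is not given in the sources used here. A read from a gene with full copies could therefore have been credited to either place.

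The 5 named genes with no such window were ATP4, CCMB, COX1, NAD4L and NAD9, and they were higher at 38 °C as well. Their summed level was 3.37, 46.5, 5.54 and 52.2 RPM. That is 13.8-fold [11.7, 16.4] in WT and 9.42-fold [8.46, 10.5] in larp1. The 16 members whose genes are fully repeated on chromosome 2 rose from 7.41 to 110 RPM in WT, 14.9-fold [13.3, 16.6], and from 9.81 to 127 RPM in larp1, 12.9-fold [12.0, 14.0]. The intervals of members with no matching window and of members with a complete copy overlapped in WT and did not in larp1.

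The listed chromosome 2 copies themselves followed their mitochondrial sources. Among 15 pairs of a named gene and a listed nuclear gene that shares at least 50% of its windows, 13 nuclear copies were called higher in WT and 15 in larp1, beside 4.26% and 4.19% of all genes. The 2 not called in WT, AT2G07771 and AT2G07768, missed the minimum with 47 and 46 reads at 38 °C and had 1 read each at 20 °C. Only AT2G07671, AT2G07715 and AT2G07698 had at least 50 reads at 20 °C, with 76, 72 and 133 in WT. In larp1 they had 183, 172 and 332. All other copies compared were admitted by the heated library only, so they had to differ. The copy of ATP1, AT2G07698, stood at 2.89, 61.1, 4.46 and 70.3 RPM. ATP1 itself stood at 1.82, 46.0, 2.65 and 55.9 RPM. The copy of ATP9, AT2G07671, stood at 1.65, 16, 2.46 and 17.8 RPM against 1.54, 15.3, 2.15 and 17.1 RPM for ATP9. For these pairs the nuclear and mitochondrial values cannot be separated. Each fold of a fully copied gene below is that of its mitochondrial entry alone, and how reads were split between the 2 places is not known. Over the 102 genes listed from AT2G07667 to AT2G07835, the stretch of chromosome 2 that holds these copies, the sum went from 35.4 to 288 RPM in WT and from 42.1 to 335 RPM in larp1, and 48 of the 50 genes compared in WT were called higher, beside 4.26% of all genes. Only 12 of the 102 had 50 reads in either control library, so most of the 50 were admitted by the heated library only.

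**Figure D2:**
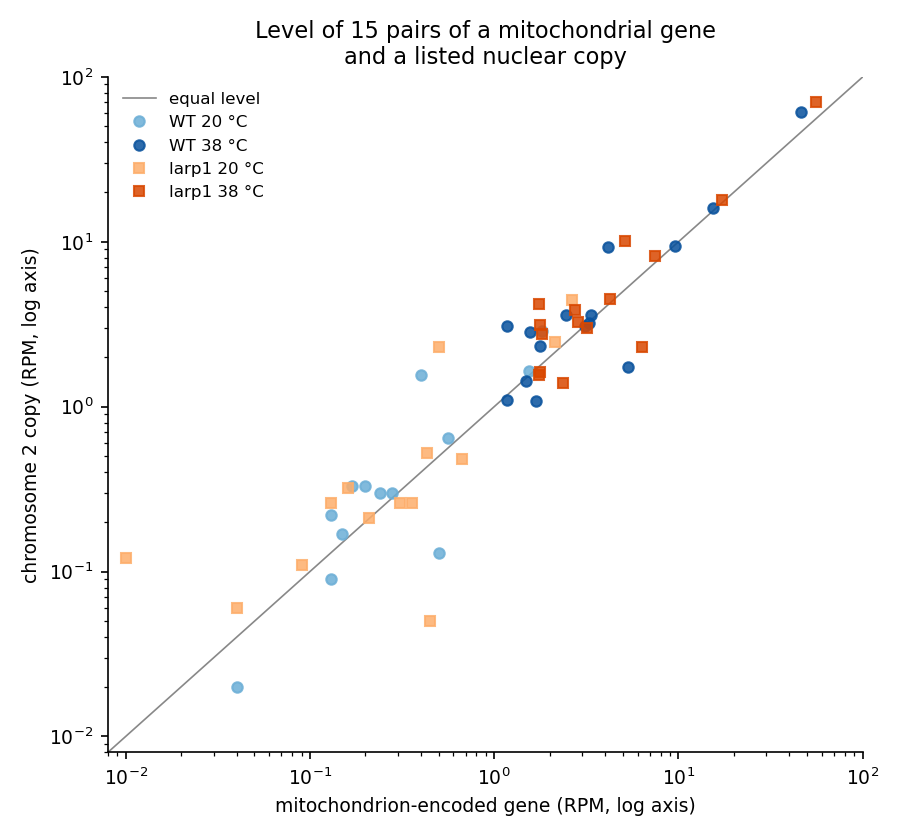
Level in RPM (log axes) of each mitochondrion-encoded gene and of its listed copy on chromosome 2, for 15 pairs in the 4 libraries; the line marks equal levels, and pairs with 0 reads for either gene in a library are not drawn. Most points lie near the line at both temperatures, with ATP1 and AT2G07698 at the top right, at 46.0 and 61.1 RPM in WT at 38 °C; NAD1 and AT2G07785 lie below it, at 5.34 and 1.74 RPM, and RPL2 and AT2G07715 above it, at 4.15 and 9.32 RPM.

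The genes of the ATP synthase, the enzyme that makes ATP from the proton gradient, rose in both genotypes. Their summed level was 5.48 RPM in WT at 20 °C and 97.0 RPM in WT at 38 °C, 17.7-fold [15.5, 20.1], and it was 7.52 and 110 RPM in larp1, 14.6-fold [13.4, 16]. All 6 members were called higher in both. ATP1, the alpha subunit of the catalytic head, rose 25.3-fold [20.3, 31.8] in WT and 21.1-fold [18.3, 24.5] in larp1, from 84 to 1961 reads in WT, and had the highest RPM of all members at 38 °C, before any correction for length. ATP9, which forms the ring of the proton channel, rose 9.94-fold [7.76, 12.9] in WT and 7.97-fold [6.71, 9.51] in larp1.

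The other members form the fixed part of the proton channel and the stalk. ATP4 (ATMG00640), a subunit of the peripheral stalk listed as ORF25, stood at 0.33, 9.13, 0.90 and 9.04 RPM. The heated libraries were alike, and the control libraries were not. ATP8 stood at 0.56, 9.53, 0.67 and 7.43 RPM. The 2 genes for subunit a, ATP6-1 and ATP6-2, stood at 0.41, 6.76, 0.38 and 7.72 RPM and at 0.82, 10.2, 0.77 and 12.5 RPM. They share most of their sequence (662 windows), so their split is uncertain, and each was higher in both heated libraries than in both controls. Neither is among the 31 genes matched above. Of the windows of the 2 atp6 genes in TAIR10.1, 69.6% and 37.5% also occurred on chromosome 2, so their reads may be shared with copies too.

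**Figure D3:**
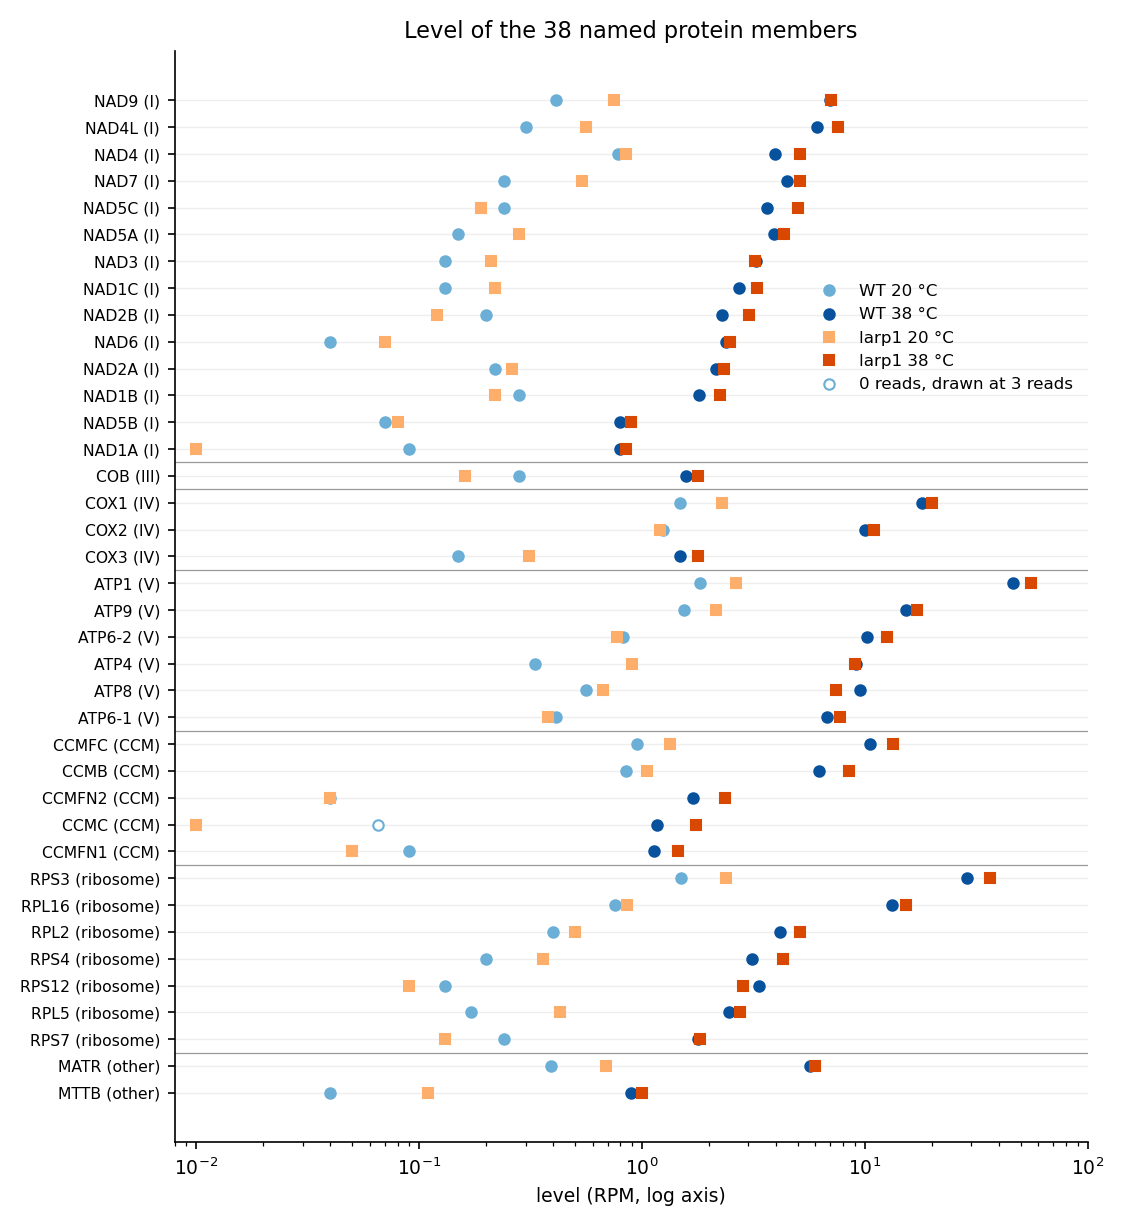
Level in RPM (log axis) of the 38 named protein members in the 4 libraries, grouped by complex, with CCM for cytochrome c maturation; the open symbol is CCMC in WT at 20 °C, with 0 reads, drawn at the level of 3 reads. Every member has both heated libraries to the right of both control libraries, with ATP1 the highest at 55.9 RPM in larp1 at 38 °C.

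Complex I, which passes electrons from NADH to ubiquinone, is the complex with the most subunits encoded in the mitochondrion, and its transcripts rose throughout. The 14 nad members summed to 3.28, 45.2, 4.36 and 52.5 RPM. The ratio was 13.8 [11.7, 16.4] in WT and 12.0 [10.6, 13.5] in larp1. NAD6, a subunit of the membrane arm, had the highest WT fold of the complex, with 0.04, 2.39, 0.07 and 2.49 RPM and 2 reads behind the first value, 59.8-fold [14.9, 461]. NAD4, also of the membrane arm, had the lowest, with 0.78, 3.94, 0.85 and 5.11 RPM, 5.05-fold [3.50, 7.45] in WT and 6.01-fold in larp1. The WT intervals of these 2 genes of the same complex did not overlap. Both were picked as the extremes of their complex in WT, so this is a description only.

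Among the subunits of the arm that reaches into the matrix, NAD9 stood at 0.41, 6.95, 0.75 and 7.01 RPM and NAD7 at 0.24, 4.48, 0.54 and 5.13 RPM. The small membrane subunits NAD3 and NAD4L stood at 0.13, 3.26, 0.21 and 3.20 RPM and at 0.30, 6.10, 0.56 and 7.61 RPM. All 4 were higher in both heated libraries than in both controls, and within a genotype the smallest of their ratios was 9.35, for NAD9 in larp1.

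NAD1, NAD2 and NAD5 are each pieced together by trans-splicing from transcripts that start in different parts of the genome, and their pieces are separate members. The pieces of NAD1 summed to 0.50 RPM in WT at 20 °C and 5.34 RPM in WT at 38 °C, 10.7-fold [6.94, 17.2], and to 0.45 and 6.35 RPM in larp1, 14.1-fold [9.71, 20.4]. For NAD2 the sums were 0.42, 4.42, 0.38 and 5.37 RPM, with ratios of 10.5 [6.66, 18.2] and 14.1 [9.34, 21.0]. NAD5 had sums of 0.46, 8.33, 0.55 and 10.3 RPM, with ratios of 18.1 [11.8, 29.9] and 18.7 [13.5, 26.3]. All 3 joined genes were higher in both heated libraries, and the intervals of the 3 ratios overlapped within each genotype.

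The pieces of a trans-spliced gene need not stand at the same level, and their exons differ in length. NAD1A, NAD1B and NAD1C stood at 0.80, 1.81 and 2.73 RPM in WT at 38 °C, and at 0.09, 0.28 and 0.13 RPM in WT at 20 °C. NAD1B rose 6.46-fold [3.53, 12.6] and NAD1C 21.0-fold [9.32, 58.1] in WT, with 13 and 6 reads at 20 °C. These intervals overlapped. NAD2A and NAD2B rose 9.73-fold [5.11, 21.2] and 11.4-fold [5.89, 26.2], and NAD5A and NAD5C rose 25.9-fold [12.2, 64.8] and 15.2-fold [8.28, 31.2]. Each pair of pieces had overlapping intervals.

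Complex III holds 1 mitochondrion-encoded subunit, cytochrome b, and complex IV, the cytochrome c oxidase that hands electrons to oxygen, holds 3. COB, the gene of cytochrome b, stood at 0.28, 1.57, 0.16 and 1.78 RPM. It rose 5.61-fold [3.05, 11] in WT, among the smallest folds of the named genes, and 11.1-fold [5.98, 22.3] in larp1, from 13 and 12 reads at 20 °C. COX1, which carries the oxygen-binding site, stood at 1.48, 18.1, 2.28 and 20.1 RPM, 12.2-fold [9.56, 15.9] in WT and 8.79-fold [7.44, 10.4] in larp1. COX2, which receives electrons from cytochrome c, stood at 1.24, 10.04, 1.21 and 10.9 RPM and rose 8.10-fold [6.15, 10.9] in WT. COX3 stood at 0.15, 1.48, 0.31 and 1.78 RPM, the lowest RPM of the complex in every library, and rose 9.87-fold [4.46, 25.2] in WT and 5.74-fold [3.59, 9.60] in larp1.

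The cytochrome c maturation genes encode the machinery that carries haem across the inner membrane and joins it to cytochrome c. The 5 members summed to 1.93, 20.8, 2.49 and 27.4 RPM, with ratios of 10.8 [8.64, 13.5] in WT and 11 [9.38, 12.8] in larp1. CCMB stood at 0.85, 6.22, 1.05 and 8.46 RPM and CCMFC at 0.95, 10.6, 1.34 and 13.4 RPM, and these 2 made up most of the sum in every library. CCMC had 0 reads in WT at 20 °C and 1 read in larp1 at 20 °C, against 1.17 and 1.74 RPM at 38 °C. That is at least 17.97-fold higher in WT, counted against 3 reads of the control library, with an interval of the ratio that starts at 14.1. In larp1 the reads went from 1 to 78, and the interval of the ratio, computed from reads, was [22.5, 5167]. CCMFN2 stood at 0.04, 1.69, 0.04 and 2.36 RPM and CCMFN1 at 0.09, 1.13, 0.05 and 1.45 RPM, from 4 reads or fewer in each control library.

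The 7 mitochondrial ribosomal protein members summed to 3.40, 57.0, 4.74 and 68.4 RPM, with ratios of 16.8 [14.3, 19.9] in WT and 14.4 [12.9, 16.1] in larp1. RPS3 had the highest RPM, uncorrected for length, at 1.5, 28.8, 2.37 and 36.4 RPM, 19.2-fold [15.1, 24.9] in WT and 15.3-fold in larp1. RPL16, whose reading frame adjoins that of RPS3 in plant mitochondria, stood at 0.76, 13.3, 0.86 and 15.2 RPM, 17.5-fold [12.4, 25.4] in WT and 17.7-fold in larp1. RPS12 is transcribed together with NAD3 in flowering plants. It stood at 0.13, 3.36, 0.09 and 2.85 RPM. These lay close to the NAD3 values above, except in larp1 at 20 °C, where NAD3 had 0.21 RPM. RPS12 rose 25.8-fold [11.6, 71.4] in WT beside 25.1-fold [11.2, 69.4] for NAD3. In larp1 it rose 31.7-fold [14.3, 76.8] beside 15.2-fold [8.87, 26.8] for NAD3, with overlapping intervals.

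The other ribosomal protein genes had fewer reads. RPL2, RPL5 and RPS4 stood at 4.15, 2.46 and 3.10 RPM in WT at 38 °C and at 0.40, 0.17 and 0.20 RPM in WT at 20 °C. RPS7, with 0.24, 1.78, 0.13 and 1.82 RPM, had the lowest fold of the class in WT, 7.42-fold [3.95, 15.6], and RPL5 had it in larp1, 6.42-fold [4.32, 9.79]. MATR, a maturase that helps to splice introns, stood at 0.39, 5.70, 0.69 and 5.99 RPM and rose 14.6-fold [9.04, 25.0] in WT and 8.68-fold [6.46, 12.0] in larp1. All 5 were higher in both heated libraries than in both controls. MTTB, a protein transporter of the inner membrane, stayed under 50 reads in every library, at 0.04, 0.89, 0.11 and 1.00 RPM.

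The rise was also read along the 12 named members with several exon entries, which hold 30 of the 56 entries of the named genes. Of all 56, 54 in WT and 55 in larp1 had a counting interval wholly above no change. The exceptions were entry 2 of NAD1C in both genotypes and entry 4 of NAD7 in WT, with 3 reads or fewer. The share over the exon entries of all genes is not given here. Within NAD4 the 4 entries rose 8.31-fold [3.53, 23.7], 9.89-fold [3.70, 39.6], 3.18-fold [1.83, 5.77] and 4.29-fold [1.88, 10.5] in WT, in the order of the table. The last 2 entries of NAD4 also had the lower ratios in larp1, at 4.18 [2.63, 7.03] and 3.90 [2.06, 7.62] beside 10.8 [5.80, 22.98] and 8.06 [4.25, 16.4]. The pairs of intervals overlapped in each genotype.

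ORFs of the mitochondrial genome are predicted from sequence, and for most no product is known. The 85 ORF members summed to 21.9, 242, 27.1 and 286 RPM. The ratio was 11.1 [10.4, 11.8] in WT and 10.5 [10.04, 11.04] in larp1. ORF107A (ATMG00030) had the highest RPM of all ORFs in every library, and of all members at 20 °C, at 5.21, 33.0, 5.91 and 37.1 RPM. Its rise of 6.33-fold [5.52, 7.29] in WT, from 240 to 1406 reads, and 6.27-fold in larp1 was smaller than that of ATP1, and the intervals of the 2 genes did not overlap.

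The ORFs next in RPM differed in fold. ORF240A (ATMG00690) stood at 1.17, 29.1, 1.73 and 35.7 RPM, 24.8-fold [18.9, 33.2] in WT, and ORF111D (ATMG01370) at 2.43, 20.6, 3.60 and 25.9 RPM, 8.47-fold [6.95, 10.4]. The WT interval of ORF240A lay above that of ORF111D. ORF262 (ATMG01090) and ORF315 (ATMG00040), both described as similar to ATP synthase subunits, stood at 1.32, 15.2, 1.67 and 14.3 RPM and at 0.74, 12.5, 1.20 and 14.1 RPM.

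The largest ORF folds, among those with 50 reads in either WT library, belonged to genes that were scarce at 20 °C. ORF139B (ATMG00620) stood at 0.09, 7.53, 0.15 and 10.8 RPM, 83.7-fold [33.6, 320] in WT and 72.3-fold in larp1. ORF110B (ATMG00630) stood at 0.15, 9.53, 0.15 and 10.9 RPM, 63.5-fold [30.2, 157] in WT and 72.5-fold in larp1. ORF139A (ATMG00170) stood at 0.15, 7.25, 0.24 and 10.3 RPM, 48.3-fold [22.9, 120] in WT and 43.0-fold in larp1. The interval of ORF139B lay above that of ATP1 in both genotypes, and those of ORF110B and ORF139A did so in larp1 but overlapped it in WT. These ORFs were picked for their large WT folds, so this is a description only. ORF164 (ATMG00940), described as DNA binding, and ORF251 (ATMG01110), described as an RNA polymerase of a mitovirus, had 0 reads in WT at 20 °C and stood at 1.97 and 1.38 RPM at 38 °C, at least 30.2-fold and 21.2-fold higher against 3 reads, with intervals that start at 24.1 and 16.8.

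The smallest ORF folds under the same minimum were those of ATMG01330, ORF313 (ATMG00590), ATMG00500, ORF145C (ATMG01350) and ORF121A (ATMG00130). ATMG01330 stood at 0.48, 1.46, 0.48 and 1.40 RPM, 3.04-fold [1.85, 5.21] in WT and 2.92-fold in larp1. ORF313, described as a cytochrome b protein, stood at 1.39, 5.12, 1.65 and 4.67 RPM, 3.68-fold [2.78, 4.95] in WT and 2.83-fold in larp1. Both had the 2 lowest folds in each genotype and still rose, although the larp1 value of ATMG01330 was not called with a pseudocount of 0.5 RPM. The table lists ATMG01330 and ATMG00500, at 0.28, 1.55, 0.30 and 1.62 RPM, under the description of another locus, which makes their assignment uncertain.

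The tRNAs stood apart by their scarcity. All 20 together held 0.89, 4.47, 1.19 and 5.65 RPM, a ratio of 5.02 [3.58, 7.24] in WT and 4.75 [3.70, 6.09] in larp1. The tRNAs are shorter than the 100-base reads, so that such reads must reach past the mature end. TRNC (ATMG00360), a tRNA for cysteine, was the 1 tRNA with 50 reads in any library, at 0.02, 1.60, 0.05 and 2.09 RPM, 80.0-fold [12.8, 2946] in WT from 1 read. The other 19 summed to 0.87, 2.87, 1.14 and 3.56 RPM, 3.30-fold [2.31, 4.88] in WT and 3.12-fold [2.38, 4.11] in larp1. With TRNC or without it, these intervals lay below those of the named protein members, at 14.6-fold [13.6, 15.7] and 12.6-fold [11.9, 13.2]. TRNS.2 (ATMG00330) stood at 0.26, 0.26, 0.31 and 0.40 RPM and was not called, with a WT ratio of 1.00 [0.40, 2.45].

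Levels of different genes can be compared only per length, and nuclear copies, which may have been credited with part of the reads, limit even that. Per kilobase of coding length in TAIR10.1, ATP9 was the highest of 31 named genes in every library, at 6.84, 68.0, 9.56 and 76.2 RPM per kb. ATP1 moved from rank 5 in WT at 20 °C, with 1.19 RPM per kb, to rank 2 at 38 °C, with 30.2 RPM per kb. CCMFN1 and MTTB were the lowest at 38 °C in WT, at 0.98 and 1.06 RPM per kb. Of their windows, 94.9% and 96.2% also occurred on chromosome 2. NAD4L, ATP4, NAD9, COX1 and CCMB, which have no such window, held ranks 4, 7, 9, 10 and 11 in that library. ATP9 and ATP1, at the top, are fully copied. The part of copies in this order was not tested. The order of the 31 genes by level per kb was similar at both temperatures, with a Spearman rho across genes of 0.88 in WT and 0.88 in larp1, and between the genotypes it was 0.91 at 20 °C and 0.99 at 38 °C. These are correlations across genes of 2 libraries and are given as a description, and the few reads at 20 °C limit them. NAD4 and COB moved down the order in WT, NAD4 from rank 14 to rank 26 and COB from rank 21 to rank 29.

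Heat responses were then set side by side in the 2 genotypes, which share no library. Among the 67 members compared in both, all rose in both, and the log2 fold changes in WT and larp1 correlated across genes with a Pearson r of 0.77 and a Spearman rho of 0.72, given as a description. The difference of heat responses, larp1 minus WT, had a median of -0.05 over these 67 members and 0.10 over all 19350 genes. It was called positive for 1 member and negative for 1, beside a background of 2.07% positive and 0.661% negative. ORF121A was the positive 1, with 0.37, 2.18, 0.09 and 1.89 RPM and a difference of 1.72 [0.44, 2.99] on the log2 scale. ATP4 was the negative 1, with a difference of -1.39 [-2.20, -0.58]. For both, the values lay further apart between the control libraries than between the heated ones. Neither difference was called with a pseudocount of 0.5 RPM, at 0.40 and -0.77.

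**Figure D4:**
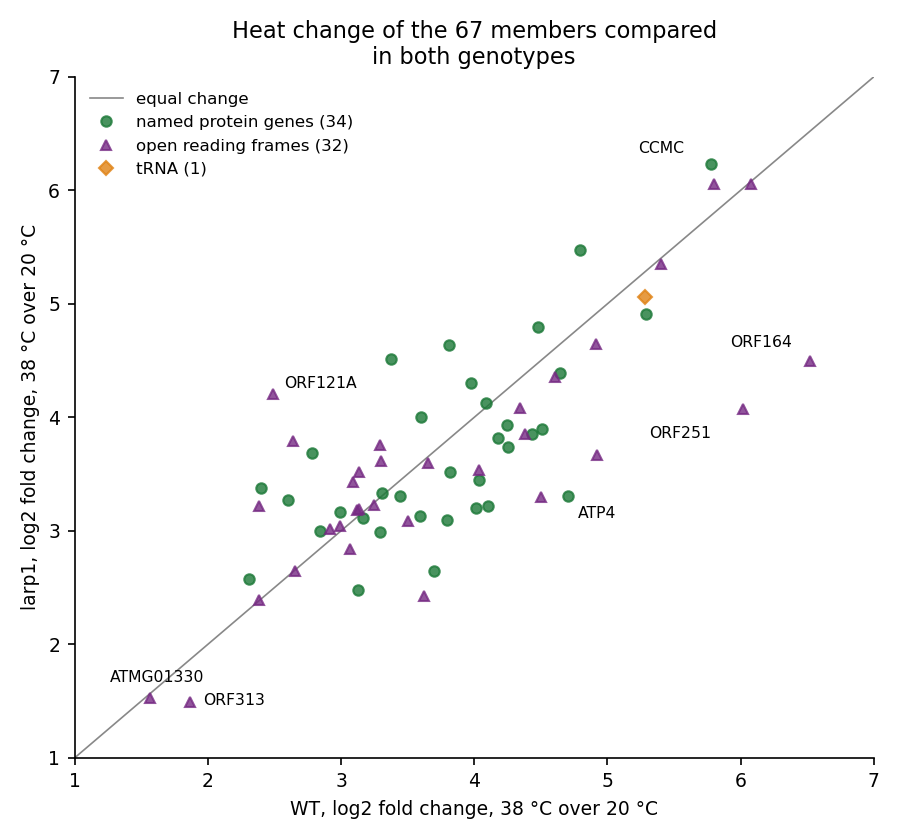
Log2 fold change of heat in WT and in larp1 for the 67 members compared in both genotypes, by class; the line marks equal change. All points lie above 1 on both axes, and ATP4 and ORF121A, with differences of -1.39 and 1.72, lie on opposite sides of the line.

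Between genotypes at one temperature the members differed little. At 20 °C their sum was 1.29-fold [1.22, 1.37] higher in larp1 than in WT, and at 38 °C 1.17-fold [1.15, 1.19]. Chloroplast-encoded genes lay the other way, at 0.88-fold [0.86, 0.90] and 0.83-fold [0.81, 0.85], while the median log2 difference of all genes compared was 0.04 at 20 °C and 0.14 at 38 °C. At 20 °C, 1 of 23 members compared was called higher and 0 lower, beside a background of 3.49% higher and 0.493% lower, and 21 of the 23 lay above 0 with a median of 0.33. The called member was ATP4, at 0.33 RPM in WT against 0.90 RPM in the mutant, 2.73-fold [1.56, 5.21], a log2 difference of 1.38 that became 0.75 and was not called with a pseudocount of 0.5 RPM. With at least 50 reads in both libraries 11 members remained, with a median of 0.47 and 0 called.

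At 38 °C, 1 of 76 members was called higher in larp1 and 0 lower, beside a background of 3.92% and 0.2%. It was ORF101B (ATMG01210), at 1.17 RPM in WT against 2.38 RPM in the mutant, from 50 and 107 reads. The median over the 76 was 0.20, and it was 0.04 with trimmed-mean scaling over nuclear genes, under which ORF101B was not called. The next highest ORFs were ORF145A (ATMG00300), described as a Gag-Pol retrotransposon, with 0.87 and 1.49 RPM, and ORF116 (ATMG00150), with 1.01 and 1.65 RPM. Among the named genes, ATP8 had the lowest value, 9.53 RPM in WT and 7.43 RPM in larp1, a log2 difference of -0.36, and CCMC the highest, 0.56.

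Respiratory complexes are assembled from subunits of both genomes, so the nuclear-encoded subunits were read beside the members. The background was 4.26% of all genes called higher and 25.0% lower in WT, and 4.19% and 19.8% in larp1. With trimmed-mean scaling it was 6.94% and 11.1% in WT and 6.11% and 9.9% in larp1. Of 10 nuclear complex I genes 0 were called in either direction in WT or larp1, with medians of -0.10 and -0.25, and of 8 nuclear ATP synthase genes 0 were called, with medians of -0.10 and -0.21. Trimmed-mean scaling turned these medians to 0.41 and 0.15 for complex I and 0.42 and 0.19 for ATP synthase, with 0 called still, so their small shifts have no fixed direction. The highest RPM of each list in WT at 20 °C belonged to a subunit of complex I (AT5G37510) at 236, 177, 214 and 167 RPM and an ATP synthase beta subunit (AT5G08690) at 227, 174, 219 and 177 RPM. In WT the log2 fold changes of the nuclear complex I genes lay between -0.41 and 0.20, against 2.31 for NAD4, the lowest mitochondrion-encoded subunit compared. None of the 7 nuclear complex III genes was called, with medians of -0.40 and -0.26 that turned to 0.12 and 0.14 with trimmed-mean scaling. In complex IV, 1 of 5 fell in both genotypes, AT3G15640, at 14.1, 4.06, 13.6 and 4.33 RPM. Complex II, which has all its subunits in the nucleus, had 1 of 4 called lower in WT, AT3G27380, at 124, 61.0, 109 and 56.7 RPM, which carries the description of another locus and was not called with trimmed-mean scaling. In RPM, 1 of 5 or 1 of 4 called lower is near the background share.

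Of a list of 5 nuclear genes for organelle RNA synthesis and decay, 0 were called higher on heating, beside 4.26% of all genes in WT and 4.19% in larp1. The list includes RPOTp (AT2G24120), the polymerase of plastids, at 27.8, 19.3, 24.2 and 19.0 RPM. RPOTm (AT1G68990), a mitochondrial RNA polymerase, stood at 18.04, 11.9, 21.7 and 14.7 RPM. RPOTmp (AT5G15700), an RNA polymerase of mitochondria and plastids, stood at 9.07, 3.73, 14.6 and 8.82 RPM, called lower in WT, though not with trimmed-mean scaling, and called higher in larp1 than in WT at 38 °C. The mitochondrial polynucleotide phosphorylase (AT5G14580), which degrades polyadenylated mitochondrial RNA, stood at 5.34, 3.38, 9.18 and 5.50 RPM, and RNR1 (AT5G02250), a trimming exonuclease, at 15.7, 12.8, 14.9 and 16.2 RPM. Neither was called. Cytochrome c, the soluble carrier between complexes III and IV, had its more variable gene (AT4G10040) at 22.6, 43.4, 26.7 and 39.8 RPM, not called in RPM but called higher in WT with trimmed-mean scaling, at a log2 fold change of 1.45. Chloroplast-encoded genes, the other organelle class, summed to 236, 300, 207 and 250 RPM, a heat ratio of 1.27 [1.24, 1.31] in WT and 1.21 [1.18, 1.24] in larp1, with intervals below those of the mitochondrion-encoded genes in both genotypes. Of the chloroplast genes compared, 7 of 46 in WT and 8 of 51 in larp1 were called higher, beside 4.26% and 4.19% of all genes. With trimmed-mean scaling the counts were 15 and 14, beside 6.94% and 6.11%.

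**Figure D5:**
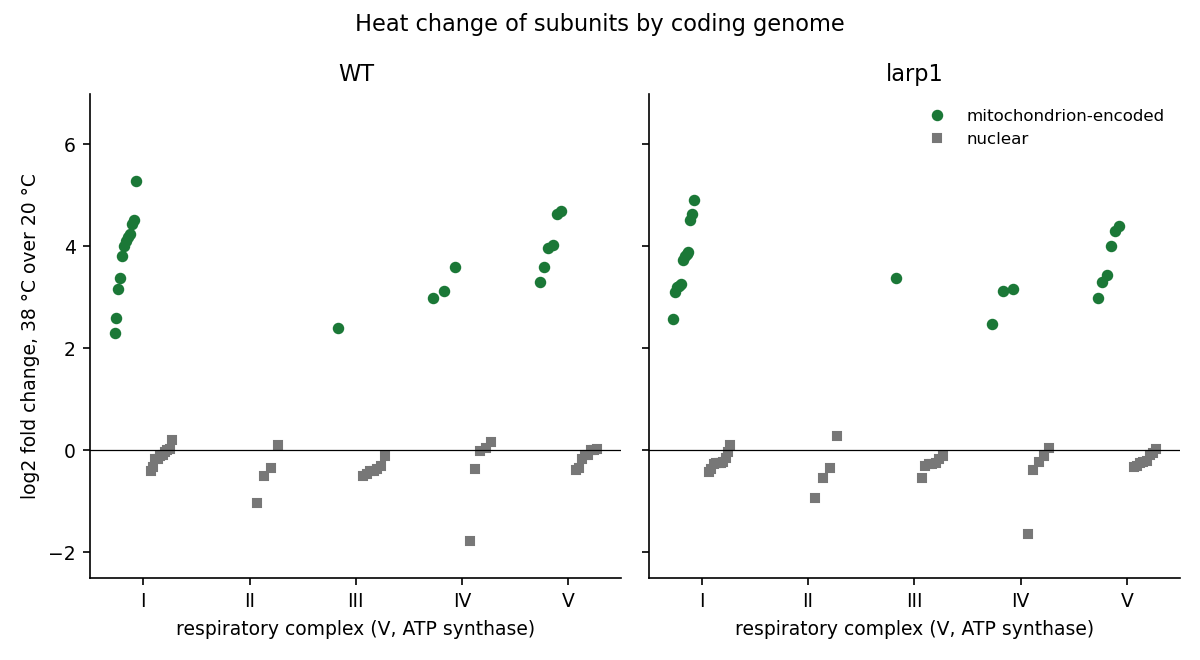
Log2 fold change of heat in WT (left) and larp1 (right) for mitochondrion-encoded members with at least 50 reads in either library (circles) and nuclear-encoded subunits (squares) of the respiratory complexes; complex II has no mitochondrion-encoded subunit here. All circles lie above 2, and the squares lie between -1.78 and 0.28.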

How the data were processed

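Total RNA of 4 pools was freed of ribosomal RNA with duplex-specific nuclease, which can also lower very abundant transcripts, broken with zinc and sequenced as 100 bp single reads, per the labels' protocols. Per the submitters' processing notes, BWA 0.5.9 was used with the TAIR10 build; how reads were counted, with which strand setting and with what treatment of multiple matches, is not given in the sources used here. Per exon entry, the deposited signal is named RPM per the file headers, with no coordinates; its columns sum to 1056660 to 1090380, so it was treated as a signal. Values under 40 RPM were whole multiples of 1 read within the rounding in 100% of cases, which gave the depths; reads served for minimums and intervals only. A gene is the sum of its distinct exon entries (161 entries for the members, none repeated; 131 members have 1), and 11 members carry an entry under another locus. Without strand, overlapping genes cannot be told apart.

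Folds are log2 of RPM plus the worth of 1 read (0.0217, 0.0235, 0.0134 and 0.0223 RPM), which understates low genes. Intervals are conditional binomial for ratios, Poisson for levels and normal on the log2 scale for the difference of heat responses; PCR copies are not independent molecules. A count of 0 allows 3 reads, 0.0651, 0.0704, 0.0403 and 0.0668 RPM. Placing the 3 compared members with 0 reads in WT at that bound left their list median at 3.65. Named were all named members with 50 reads in any library, and of the ORFs the 5 highest and 5 lowest heat folds in WT, the 5 most abundant, and the 3 highest and 3 lowest differences of larp1 from WT at each temperature. Of each nuclear list the most abundant, highest and lowest were eligible. The members and lists were chosen with earlier results of these data known. Alternatives covered exon entries, scaling, read minimums, the pseudocount, and leaving out members with copies or ORFs; functions were tested on simulated data. No mitochondrial sequence is printed. Values were computed with scipy 1.17.1, pandas 2.3.3 and numpy 2.4.6 under Python 3.11.15, and drawn with matplotlib 3.10.9.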

Additional observations from a re-analysis of the deposited data

Results flagged for a closer look

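Results were listed here where the heat responses of the 2 genotypes differed by a counting interval of the difference itself, larp1 minus WT on the log2 scale; with 1 library per group, variation between pools was not measured. ORF121A (ATMG00130) had a difference of 1.72 [0.44, 2.99], from 17 reads in WT and 7 in larp1 at 20 °C and 93 and 85 reads at 38 °C. ATP4 (ATMG00640) had a difference of -1.39 [-2.20, -0.58], from 15 and 67 reads at 20 °C and 389 and 406 reads at 38 °C.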

How the results depend on the processing

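All compared members were called higher on heating in both genotypes under each alternative, with these exceptions: 111 of 114 in WT and 118 of 121 in larp1 with a minimum of 10 reads, 119 of 141 and 131 of 143 with none, and 75 of 76 in larp1 with a pseudocount of 0.5 RPM. With 50 reads in the lower library 11 and 23 were compared, without the members taken to have a nuclear copy 34 and 41, without unnamed ORFs 35 and 36, and with only the named members that have no nuclear window, an alternative chosen after seeing the data, 5 and 5. Trimmed-mean and median-of-ratios scaling moved the median of all genes in WT from -0.51 to 0.00 and 0.02, and that of the members from 3.65 to 4.16 and 4.18.

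Calls of larp1 against WT were 9 at 20 °C (7 higher, 2 lower) and 7 at 38 °C (6 higher, 1 lower) with a minimum of 10 reads and with none. They were among 68 and 123 members with the minimum, beside 5.01% and 5.61% of all genes higher and 1.14% and 0.574% lower, and among 128 and 142 with none, beside 4.69% and 5.19% higher. They were 0 at 20 °C with 50 reads in the lower library or the pseudocount of 0.5 RPM, and 0 at 38 °C with either scaling, the pseudocount, without unnamed ORFs and with the members that have no nuclear window. The difference of heat responses was called for 6 of 112 members (3 positive, 3 negative) with a minimum of 10 reads. The background was 2.88% of all genes positive and 1.29% negative. With no minimum it was called for 7 of 141 (4 and 3), beside 2.88% and 1.47%. Either scaling gave 4 of 67 (1 and 3), beside 1.51% and 0.961% with trimmed-mean and 1.6% and 0.915% with median-of-ratios scaling. The number was 0 with 50 reads in the lower library or the pseudocount, and 1 without unnamed ORFs or with the members that have no nuclear window. The cause was not tested.

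The summed RPM in the order WT 20 °C, WT 38 °C, larp1 20 °C and larp1 38 °C was 35.0, 623, 43.9 and 656 with trimmed-mean scaling, 34.9, 628, 43.0 and 658 with median-of-ratios scaling, and 48.2, 574, 61.7 and 673 against the nuclear total. It was 23, 268, 29.3 and 320 without members taken to have a nuclear copy, 18.6, 262, 25.1 and 305 without unnamed ORFs, and 486, 49.99 and 568 in the last 3 libraries with the highest exon entry of each gene. Leaving out members taken to have a copy kept 104 members. Most of these are ORFs and tRNAs, which were not searched by windows, so some may still have a copy. No called value of a named gene reversed under an alternative. No paired analysis was possible because each group holds 1 library. Depth limits the members under 50 reads at 20 °C, whose folds rest on few reads.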

Other observations

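In the authors' deposited table of genes up at 38 °C in both WT and larp1, 71 of 680 genes were mitochondrion-encoded, made up of 35 named protein members, 35 ORFs and 1 tRNA. In the authors' deposited table of genes up in larp1 and not in WT, 11 of 147 genes were mitochondrion-encoded, 1 of them a named protein member and 10 ORFs. Among all genes of the expression table, 143 of 25819 were mitochondrion-encoded. The 5 exon entries of NAD7 (ATMG00510), in table order, had 7, 4, 0, 0 and 0 reads in WT at 20 °C and 73, 20, 70, 2 and 26 reads at 38 °C. In larp1 at 20 °C they had 16, 8, 10, 0 and 7 reads, and at 38 °C 88, 26, 74, 4 and 38 reads.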
